A study of Mus musculus with 2 samples.

Results

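The genes described here are 52 members of the Wnt pathway: the secreted Wnt ligands and the proteins that release them, their receptors, the inhibitors and R-spondins that act outside the cell, and the intracellular proteins that carry the signal to the Tcf and Lef transcription factors. They were chosen by name, with earlier results of these data known. All 52 were found among the 43346 Ensembl genes of both gene tables. By role they fall into 13 ligands, 2 proteins of ligand release, 12 Frizzled and Lrp receptors, 9 secreted inhibitors, 7 genes of the R-spondin axis and 9 intracellular or Tcf/Lef genes. The tissue was mouse embryonic forebrain at 10.5 days of development, from healthy embryos of the strain B6NCrl and of both sexes. Replicate 1 pooled the forebrains of 69 embryos and replicate 2 those of 51 others, and from each pool 10 ng of total RNA went into 1 library. No treatment, mutation or second tissue is labelled, so there is a single group with n = 2. The data can show which members were expressed, in what order, and how far the pools differed.

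A Wnt protein is lipidated by Porcn, carried out of the cell by Wls and bound at the next cell by a Frizzled receptor together with Lrp5 or Lrp6. In the branch that runs through beta-catenin, binding stops a complex built on Axin and Apc from destroying that protein, which then enters the nucleus and acts with Tcf and Lef factors on target genes. In the early forebrain, Wnts made along the dorsal midline and in the diencephalon pattern the neural tube and keep progenitors dividing, and inhibitors made in the anterior tissue limit the signal.

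The library of replicate 1 had 43021202 expected counts and that of replicate 2 had 39215064, and the members drew 132091 and 120403 of them. Levels are given as TPM, a length-adjusted share that allows genes to be compared within a library. Together the members held 0.148% of the TPM of replicate 1 and 0.147% of that of replicate 2. The tissue label was checked against marker genes. Of 12 forebrain neuroepithelium markers 11 reached 1 TPM in both libraries, led by Vim at 765.4 ± 4.26 TPM and Hes5 at 240.6 ± 12.3 (SD, n = 2), and the forebrain factor Lhx2 averaged 95.01 ± 4.69 TPM. The HOX genes of hindbrain and spinal cord were near 0, with Hoxa3, Hoxb4 and Hoxc6 at 0 counts in both libraries. The dissected tissue also carried RNA of other cells: all 10 head mesenchyme and neural crest markers, all 8 endothelial, all 8 erythroid, 7 of 8 surface ectoderm and 7 of 8 macrophage markers reached 1 TPM in both libraries. The leading genes of these lists were Col3a1 at 250.9 TPM and Col1a2 at 82.2, Egfl7 at 79.3 and Esam at 23.0, Hbb-y at 7845 and Hbb-bh1 at 4046, Krt8 at 31.6 and Krt18 at 31.2, and C1qb at 13.02 and Tyrobp at 9.52 TPM on average. A level in these bulk samples is a mean over all of those cells, in which fewer cells of a type and less RNA per cell cannot be told apart.

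Most members were expressed. At 1 TPM or more in both libraries 44 of the 52 were detected, against 57.3% of all protein-coding genes (12315 of 21474). The members were chosen with earlier results of these data known, so the choice may have raised their share. Of all 19 Wnt genes, members or not, 9 were detected (47.4%), and of 90 other pathway genes 75 (83.3%). The median member stood at 10.0 TPM in replicate 1 and 9.38 TPM in replicate 2, the median protein-coding gene at 3.27 and 3.16 TPM. All 12 receptors, both genes of ligand release and all 9 intracellular or Tcf/Lef genes were detected, as were 8 of the 13 ligands, 7 of the 9 secreted inhibitors and 6 of the 7 genes of the R-spondin axis. Under 1 TPM in both libraries were the ligands Wnt2b, Wnt4, Wnt10a and Wnt11 and the inhibitors Sfrp5 and Notum, while Wnt1 and Rnf43 passed that level in replicate 1 only.

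**Figure D1:**
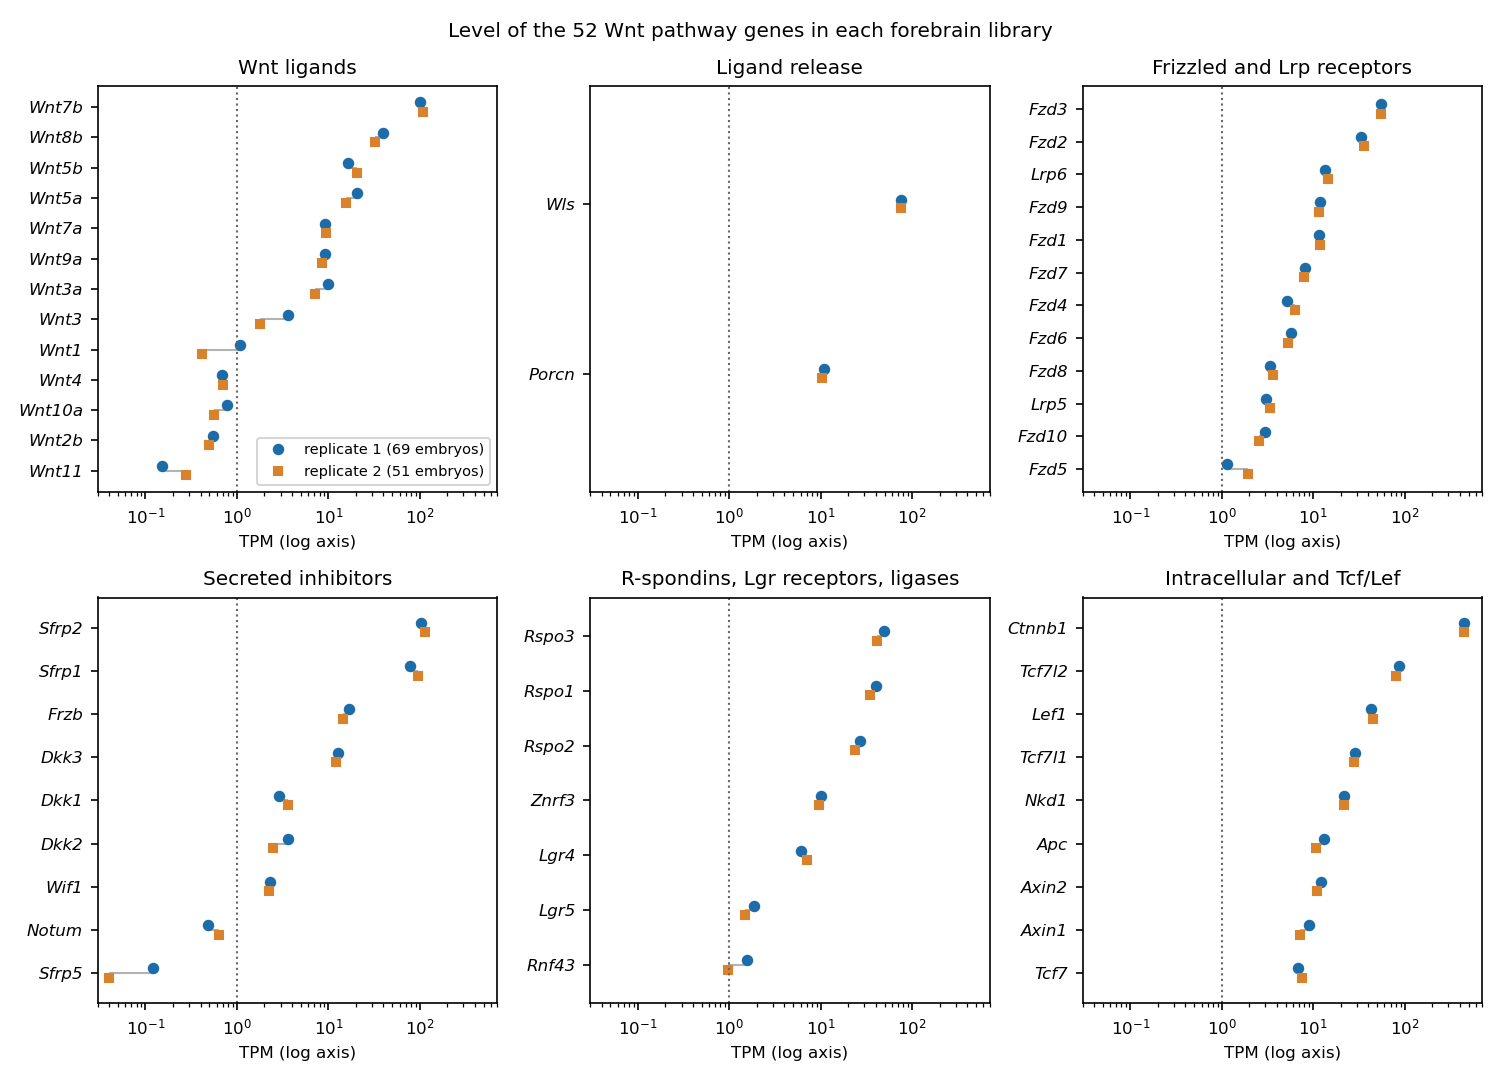
TPM of each of the 52 members in replicate 1 (circles) and replicate 2 (squares), on a log axis, in 6 panels by role, with the members of a role ordered by mean. The dotted line is 1 TPM, and 44 members lie at or to the right of it in both libraries. Ctnnb1 is the highest member, at 447.2 and 449.2 TPM.

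Among the ligands Wnt7b was the most abundant. Wnt7b, a ligand long studied in neural development, had 101.3 TPM in replicate 1 and 108.1 TPM in replicate 2. That was 47.6% and 52.6% of the summed TPM of the 13 ligands. Its gene lies on chromosome 15 at 85535437 to 85582473, on the minus strand (GRCm38, the assembly also called mm10). Wnt8b, a ligand of the cortical hem and the dorsal diencephalon, followed at 39.5 and 32.4 TPM, or 18.5% and 15.8% of the ligand total. The order of these top ligands was the same in both libraries, and Wnt7b exceeded Wnt8b by 1.55 ± 0.27 on the log2 scale (SD, n = 2), a 2.92-fold difference.

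Wnt5a and Wnt5b, close paralogs that often signal without beta-catenin, came next at similar levels. Wnt5a had 20.4 TPM in replicate 1 and 15.5 TPM in replicate 2. Wnt5b had 16.4 and 20.5 TPM. Wnt5a was the higher of the pair in replicate 1 and Wnt5b in replicate 2, so their order was not settled. Without division by length Wnt5a was the higher in both, by 0.83 ± 0.34 on the log2 scale. By counts Wnt5a differed between libraries by only 1.11-fold (2054 and 1679 counts), less than its TPM did. Of its short noncoding transcripts, Wnt5a-204 and Wnt5a-206, of 337 and 361 bases, took 15.1% and 9.49% of its TPM in replicate 1 from 20.3 and 14.1 counts, and 0% and 5.60% in replicate 2.

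The next 3 ligands among the members lay close together. Wnt7a, the paralog of Wnt7b, had 9.16 TPM in replicate 1 and 9.31 TPM in replicate 2, so that Wnt7b exceeded it 11.2-fold (log2 3.49 ± 0.05, n = 2). Wnt9a had 9.23 and 8.42 TPM. Wnt3a, the hem ligand required in mouse for the hippocampus, had 9.95 and 7.14 TPM. The order of Wnt7a, Wnt9a and Wnt3a changed between the libraries by more than the gaps between their means. Wnt8b exceeded Wnt3a, with which it shares the hem, by 2.07 ± 0.13 on the log2 scale, 4.20-fold.

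Wnt3 had 3.59 TPM in replicate 1 and 1.78 TPM in replicate 2, and lay below its paralog Wnt3a in both libraries, by 3.24-fold on average (log2 -1.70 ± 0.35 for Wnt3 over Wnt3a). Wnt1, the ligand of the midbrain and its border with the hindbrain, had 1.09 and 0.42 TPM. The remaining ligands stayed low in both libraries. Wnt4 had 0.68 and 0.71 TPM, Wnt10a 0.78 and 0.56, Wnt2b 0.55 and 0.50, and Wnt11 0.15 and 0.28. Wnt4, Wnt10a and Wnt2b rested on 28 to 77 counts a library and Wnt11 on 8 and 12, so counting error alone blurs their order. Among neighbours in the ligand order, 5 of 12 pairs did not differ beyond their spread. That is, the libraries disagreed on the sign or the mean log2 difference was under 1 SD. The 5 were Wnt5b and Wnt5a, Wnt7a and Wnt9a, Wnt9a and Wnt3a, Wnt1 and Wnt4, and Wnt4 and Wnt10a. The order was taken from the same 2 libraries, and with n = 2 genes of equal level can pass this rule. A pair that passes it, here or in the other roles, is thus not a settled order.

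Of the 6 Wnt genes outside the members only Wnt6 reached 1 TPM in both libraries. Wnt6 had 7.73 TPM in replicate 1 and 9.02 TPM in replicate 2, a level near that of Wnt7a, Wnt9a and Wnt3a. Wnt9b had 0.84 and 1.17 TPM, and Wnt2, Wnt8a, Wnt10b and Wnt16 were under 1 TPM in both. Over all 19 Wnt genes, Wnt7b held 45.5% and 49.9% of the TPM.

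Both genes that ligands need to leave the cell were present at steady levels. Wls had 75.6 TPM in replicate 1 and 74.6 TPM in replicate 2. Porcn, the enzyme that adds the lipid, had 10.8 and 10.3 TPM, 7.04-fold less than Wls.

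**Figure D2:**
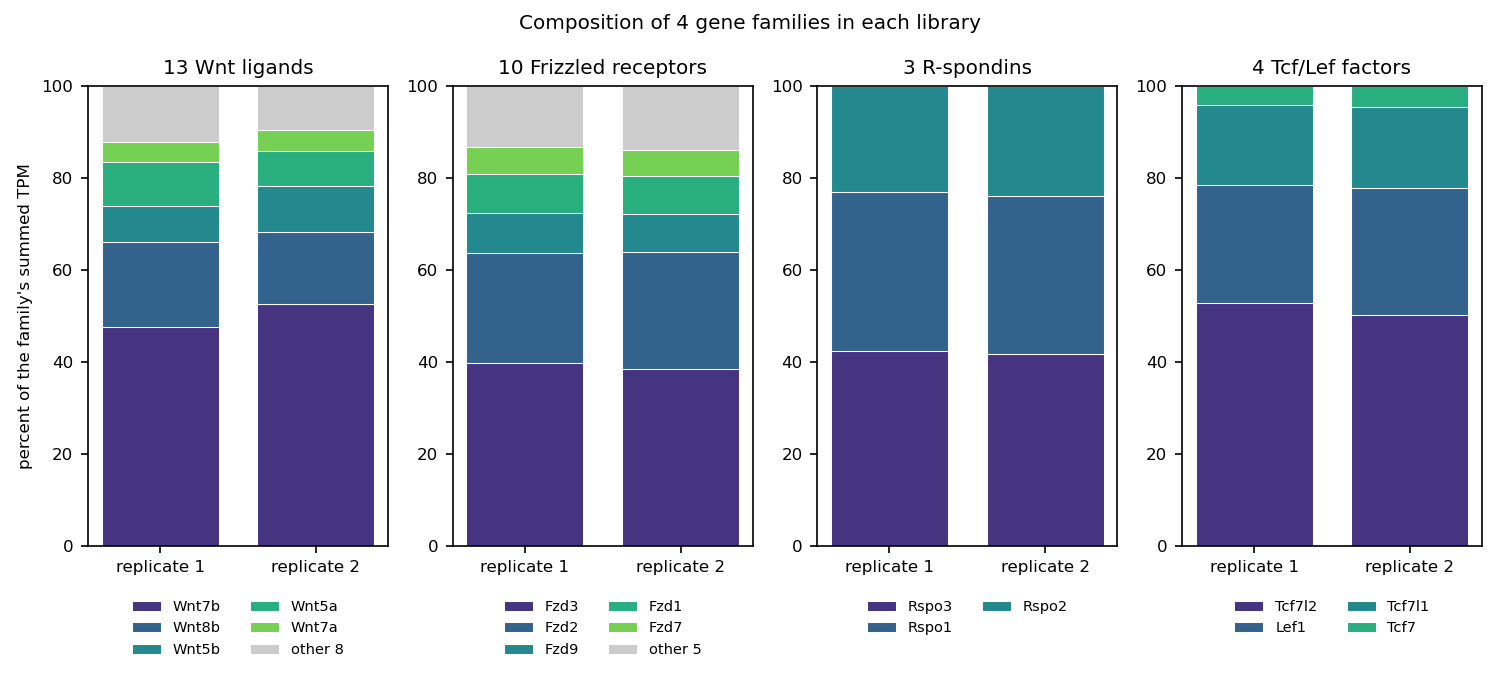
Stacked bars give each gene's percent of the summed TPM of its family in replicate 1 (left bar) and replicate 2 (right bar), for the 13 member ligands, the 10 Frizzled receptors, the 3 R-spondins and the 4 Tcf/Lef factors. Wnt7b, Fzd3, Rspo3 and Tcf7l2 lead their families in both libraries, with 47.6% and 52.6%, 39.7% and 38.5%, 42.5% and 41.7%, and 52.7% and 50.1%.

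All 10 Frizzled receptors were detected, but Fzd3 and Fzd2 carried most of the family. Fzd3, which in mouse also guides growing axons, had 54.7 TPM in each library, or 39.7% and 38.5% of the Frizzled total. Fzd2 had 33.2 TPM in replicate 1 and 36.1 TPM in replicate 2. Fzd3 stood 9.80-fold above its paralog Fzd6 (5.68 and 5.31 TPM), a log2 difference of 3.29 ± 0.07. Fzd2 stood 2.93-fold above Fzd1 (11.5 and 12.0 TPM) and 4.26-fold above Fzd7 (8.09 and 7.99 TPM), its 2 closest relatives. All 3 differences were far larger than the spread between libraries.

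Fzd9 had 12.0 TPM in replicate 1 and 11.6 TPM in replicate 2, and Fzd10 had 2.96 and 2.56. Fzd4, the receptor of Norrin in blood vessels, had 5.17 and 6.30 TPM. Fzd8 had 3.39 and 3.59 TPM. Fzd5, a receptor of the eye field and the optic vesicle, was the lowest Frizzled at 1.15 and 1.94 TPM, and its paralog Fzd8 exceeded it 2.25-fold. Without division by length that difference, -0.20 ± 0.49 on the log2 scale for Fzd5 over Fzd8, was within its spread. The co-receptor Lrp6 had 13.5 and 14.6 TPM, against 3.04 and 3.34 TPM for Lrp5. That ratio was among the steadiest of the pairs compared, at 4.31-fold (log2 2.11 ± 0.01). In the receptor order 3 of 11 neighbouring pairs did not differ beyond their spread: Fzd9 and Fzd1, Fzd4 and Fzd6, and Lrp5 and Fzd10.

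Receptors and polarity proteins that act in the branches without beta-catenin were also expressed, 12 of 13 at 1 TPM or more in both libraries. Ptk7, a co-receptor of planar polarity, led at 56.6 ± 1.15 TPM (n = 2), followed by Vangl2 at 34.5 ± 0.877 and Celsr2 at 28.8 ± 1.55. The muscle receptor Musk was the exception, with 3 counts in replicate 1 and 0 in replicate 2.

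The secreted inhibitors were led by Sfrp2 and Sfrp1, which bind Wnts outside the cell. Sfrp2 had 102.7 TPM in replicate 1 and 113.0 TPM in replicate 2. Sfrp1 had 78.6 and 95.6 TPM. Sfrp2 was the higher in both libraries per length, by 1.24-fold (log2 difference of Sfrp1 over Sfrp2 -0.31 ± 0.10), but without division by length Sfrp1 was the higher, since its transcript is longer, 4372 against 1994 to 1995 bases. Together with Frzb, a relative of both, they held 89.98% and 91.3% of the TPM of the 9 inhibitors. Frzb itself had 16.7 and 14.5 TPM. Sfrp5, another relative, gave 6 counts in replicate 1 and 2 in replicate 2 and was the lowest of all 52 members.

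The Dickkopf genes ranged lower. Dkk3, a divergent relative, had 12.7 TPM in replicate 1 and 12.3 TPM in replicate 2. Dkk1, which blocks Lrp6 and is required in mouse for the anterior head, had 2.89 and 3.63 TPM, and Dkk2 had 3.58 and 2.51. The libraries gave opposite orders for Dkk1 and Dkk2, and these were the only neighbours among the inhibitors that did not differ beyond their spread. Wif1, which binds Wnts directly, had 2.30 and 2.23 TPM, and Notum, the enzyme that removes their lipid, 0.48 and 0.64 TPM on 25 and 27 counts. Genes on the opposite strand share exons with 12 members, and the sources used here do not give whether counting used strand. The largest such share was that of Notum, 708 bases or 29.4% of its exons with Notumos, and Sfrp2 shared 347 bases with Gm26771, itself at 2.84 and 2.44 TPM. Reads from such stretches cannot be assigned to either gene with certainty.

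Other extracellular and membrane modulators were detected at 12 of 18. The glypicans, heparan sulfate proteins that bind Wnts at the cell surface, were the highest, with Gpc3 at 202.3 ± 11.4 TPM, Gpc4 at 67.1 ± 6.24 and Gpc6 at 28.5 ± 0.997. Under 1 TPM in both libraries were Dkk4, Dkkl1, Rspo4, Lgr6, Sost and Trabd2b.

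R-spondins strengthen Wnt signals by keeping the ligases Znrf3 and Rnf43 from removing Frizzled receptors. All 3 R-spondins among the members were abundant, in the order Rspo3, Rspo1 and Rspo2. Rspo3 had 48.9 TPM in replicate 1 and 41.5 TPM in replicate 2. Rspo1 had 39.7 and 34.2 TPM, and Rspo2 26.7 and 23.8. The gaps were small but steady: Rspo3 exceeded Rspo1 1.22-fold (log2 0.29 ± 0.02) and Rspo1 exceeded Rspo2 1.46-fold (log2 0.55 ± 0.03). Without division by length Rspo2, with the longest transcript of the trio, had more counts than Rspo1.

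Their receptors were far lower. Lgr4 had 6.07 TPM in replicate 1 and 7.14 TPM in replicate 2. Lgr5, known as a stem cell marker of the gut, had 1.84 and 1.47 TPM, 3.83-fold less than Lgr4 over all transcripts. The noncoding Lgr5-203, of 607 bases, took 31.8% and 44.1% of the Lgr5 TPM from 8.21 counts in each library. The leading coding transcript, Lgr5-201, had 1.08 and 0.70 TPM, so by it alone Lgr5 was under 1 TPM in replicate 2. Znrf3 had 10.1 and 9.44 TPM. Rnf43 had 1.56 and 0.96 TPM on 108 and 79 counts, 7.44-fold less than Znrf3. On the log2 scale Znrf3 over Rnf43 was 2.89 ± 0.39, but 2.24 with posterior mean TPM and 4.03 without division by length. By the same lenient rule all 6 neighbouring pairs of the R-spondin axis differed beyond their spread, Lgr5 over Rnf43 at 0.40 ± 0.24 on the log2 scale.

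Beta-catenin, the product of Ctnnb1, was the highest member, at 447.2 TPM in replicate 1 and 449.2 TPM in replicate 2. It also belongs to the adhesion junctions between cells, so its RNA level is not a measure of signalling. Its exons share 759 bases with Ulk4 on the opposite strand, which had 5.57 and 4.61 TPM. The scaffolds of the destruction complex were much lower: Apc had 12.95 and 10.76 TPM, Axin2, a widely used target gene of the pathway, 12.1 and 10.9, and Axin1 8.95 and 7.17. Axin2 exceeded Axin1 1.42-fold (log2 difference of Axin1 over Axin2 -0.51 ± 0.12). Their leading coding transcripts alone had the opposite order: Axin2-201 had 6.28 TPM in replicate 1 and 5.54 TPM in replicate 2, and Axin1-201 6.55 and 6.18. Nkd1, another target gene, whose product binds Dishevelled and dampens the signal, had 21.6 and 21.5 TPM. All 21 other Dishevelled and destruction complex genes were detected. The highest was Ppp2r1a at 334.2 TPM in replicate 1 and 324.3 in replicate 2, followed by Csnk1a1 at 213.8 ± 7.11 TPM and Csnk1d at 103.3 ± 2.06.

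All 4 Tcf/Lef factors were present, and Tcf7l2 made up about as much as the others together. Tcf7l2 had 86.8 TPM in replicate 1 and 80.6 TPM in replicate 2, or 52.7% and 50.1% of the family. Lef1, mostly an activator, had 42.4 and 44.7 TPM. Tcf7l1, mostly a repressor that holds targets off in the anterior neural plate, had 28.6 and 28.1 TPM, and Tcf7 had 6.82 and 7.48. Each step exceeded the spread: Tcf7l2 was 1.92-fold above Lef1 (log2 0.94 ± 0.13), Tcf7l1 lay 1.56 ± 0.06 below Tcf7l2 on the log2 scale, and Lef1 was 6.02-fold above Tcf7 (log2 2.59 ± 0.04). In this role group 2 of 8 neighbouring pairs did not differ beyond their spread, Apc with Axin2 and Axin1 with Tcf7.

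The nuclear partners of beta-catenin were all detected, 16 of 16. They were led by the corepressor Ctbp1 at 312.9 ± 5.30 TPM, Tle5 at 197.7 ± 2.45, a short relative of the Groucho corepressors, and Ctbp2 at 112.6 TPM in replicate 1 and 106.3 in replicate 2. Among 16 genes known as targets of the pathway in mouse embryos 13 were detected, with Ccnd1 at 200.6 ± 6.84 TPM, Msx1 at 156.6 ± 10.7 and Myc at 44.0 ± 2.71. Cdx1, Cdx2 and T, targets in the posterior embryo, were under 1 TPM, Cdx2 at 0 counts in both libraries. Over the 24 paralog and partner pairs compared within a library, the first-named gene was higher in both libraries in 17, the second in 5 and the order differed in 2, Wnt5a with Wnt5b and Dkk1 with Dkk2. The other 22 differences exceeded their spread. With 2 libraries the smallest two-sided p of an exact sign flip test is 0.5, so no p is given.

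Several members make more than a single RNA. The tables split 31 of the 52 members into several transcripts, and the same transcript led in both libraries for 25 of these. In 6 the leading transcript differed: Wnt11, Porcn, Notum, Lgr4, Rnf43 and Lef1. These shares are the authors' estimates from reads that often fit several transcripts.

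In Lef1 and Lgr4 the forms differ by single exons. Lef1-202 held 48.4% of the TPM of Lef1 in replicate 1 and 42.8% in replicate 2, and Lef1-204 held 43.4% and 46.8%. They differ by the 41 bases of chr3:131204933-131204973 (GRCm38, plus strand), an exon near the 3′ end of the coding sequence that Lef1-204 lacks. The longest form, Lef1-201, is the only one of these 3 with exon 6, which adds 84 coding bases, and it held 0.97% and 3.58%. Its level was 0.41 TPM in replicate 1 and 1.60 TPM in replicate 2, far below the 2 forms that skip the exon. In Lgr4 the form with exon 2, Lgr4-201, held 55.3% and 39.4%, and Lgr4-202, which lacks it, 42.4% and 57.4%. Exon 2 of Lgr4 adds 72 coding bases in the outer part of the receptor, which is built of leucine-rich repeats. Exon 6 of Lef1 is shown because it sets Lef1-201 apart from the leading forms, and exon 2 of Lgr4 because its 2 leading forms differ by it. The exon is in capitals and 10 bases of the exon on each side are in lower case, from the GENCODE M21 transcripts (GRCm38).
Lef1 exon 6 of 12, chr3:131191023-131191106, plus strand: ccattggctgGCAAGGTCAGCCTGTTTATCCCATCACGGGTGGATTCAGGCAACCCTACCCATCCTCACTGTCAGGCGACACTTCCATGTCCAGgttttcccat
Lgr4 exon 2 of 18, chr2:109970692-109970763, plus strand: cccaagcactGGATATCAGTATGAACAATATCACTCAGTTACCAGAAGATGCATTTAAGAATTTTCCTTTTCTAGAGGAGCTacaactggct

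Start sites also divided a few members. Transcripts were assigned to RefSeq start sites within 600 bases. Wnt5b used 2 starts in both libraries. The upstream start held 63.0% of its TPM in replicate 1 and 77.9% in replicate 2, and the middle start held 33.8% and 22.1%. The downstream start held 3.18% from an estimated 30.1 counts in replicate 1 and an estimate of 0 in replicate 2. Both values are allocations of reads that other Wnt5b transcripts share. The 150 bases around each start are shown to set the starts side by side: 140 bases before the start are in lower case, and the first 10 bases from the start are in capitals (RefSeq, GRCm38.p6).
Wnt5b upstream start, chr6:119544338-119544487, minus strand: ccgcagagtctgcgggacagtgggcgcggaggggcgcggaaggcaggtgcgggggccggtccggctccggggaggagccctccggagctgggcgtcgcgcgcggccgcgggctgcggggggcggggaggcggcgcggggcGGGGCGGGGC
Wnt5b middle start, chr6:119467202-119467351, minus strand: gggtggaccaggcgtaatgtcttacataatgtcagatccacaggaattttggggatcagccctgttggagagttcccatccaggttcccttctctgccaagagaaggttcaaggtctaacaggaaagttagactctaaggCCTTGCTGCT
Wnt5b downstream start, chr6:119449377-119449526, minus strand: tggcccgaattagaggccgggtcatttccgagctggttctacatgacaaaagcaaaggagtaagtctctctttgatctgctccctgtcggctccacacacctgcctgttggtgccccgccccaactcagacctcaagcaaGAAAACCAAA

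The sequence of the upstream Wnt5b start was 85.3% G and C, against 49.3% and 53.3% at the middle and downstream starts. Over all 32851 RefSeq promoters the same 150 bases had a median of 54.0%, and the 10th and 90th percentiles were 39.3% and 72.0%. The most used Wnt5b start was thus the richest in G and C of its 3, and above the 90th percentile of all promoters.

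Tcf7l2 also had a leading upstream start. Transcripts assigned to its upstream start held 85.0% of the TPM in replicate 1 and 89.6% in replicate 2. Those assigned to an internal start far inside the gene held 5.52% and 6.41%. A further 9.50% and 3.97% lay in 5 transcripts that start further than 600 bases from either. Apart from Tcf7l2-217, at 55742845, these start between 55893352 and 55898553, on both sides of the internal start. Short forms of Tcf and Lef factors that start inside the gene are known to lack the part that binds beta-catenin. Whether the internal Tcf7l2 transcripts counted here lack it was not tested. The upstream sequence was 68.7% G and C, below the 90th percentile of all promoters, and the internal one 38.0%. The upstream sequence is that of the RefSeq start at 55741810. The transcripts that start nearest to it, at 55741820, had 0 counts in both libraries. The leading transcript, Tcf7l2-209, held 41.1% and 41.9% of the TPM and starts at 55742332, so the printed bases do not lie around its start.
Tcf7l2 upstream start, chr19:55741670-55741819, plus strand: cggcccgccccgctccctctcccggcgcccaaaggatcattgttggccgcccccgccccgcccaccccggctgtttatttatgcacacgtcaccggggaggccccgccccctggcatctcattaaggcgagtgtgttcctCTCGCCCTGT
Tcf7l2 internal start, chr19:55895181-55895330, plus strand: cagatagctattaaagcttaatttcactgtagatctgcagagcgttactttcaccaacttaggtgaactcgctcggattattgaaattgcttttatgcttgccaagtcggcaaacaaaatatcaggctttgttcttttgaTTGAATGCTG

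In Tcf7 the downstream of 2 neighbouring starts held 82.1% of the TPM in replicate 1 and 83.6% in replicate 2. In Lef1 the upstream start held 92.8% and 93.1%. The other Lef1 start with annotated transcripts held 7.22% and 6.85%, all of it in transcripts annotated as retained introns. In Ctnnb1 transcripts assigned to the downstream of 2 neighbouring starts held 57.5% and 57.8%, and those at the upstream one 39.2% and 38.9%. In Tcf7 and Ctnnb1 the leading transcripts of the 2 starts also end at different positions. Reads at the 3′ end can therefore shape these shares, which do not measure the use of a start alone. The shares of Tcf7, Lef1 and Ctnnb1 differed far less between the pools than those of Wnt5b.

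**Figure D3:**
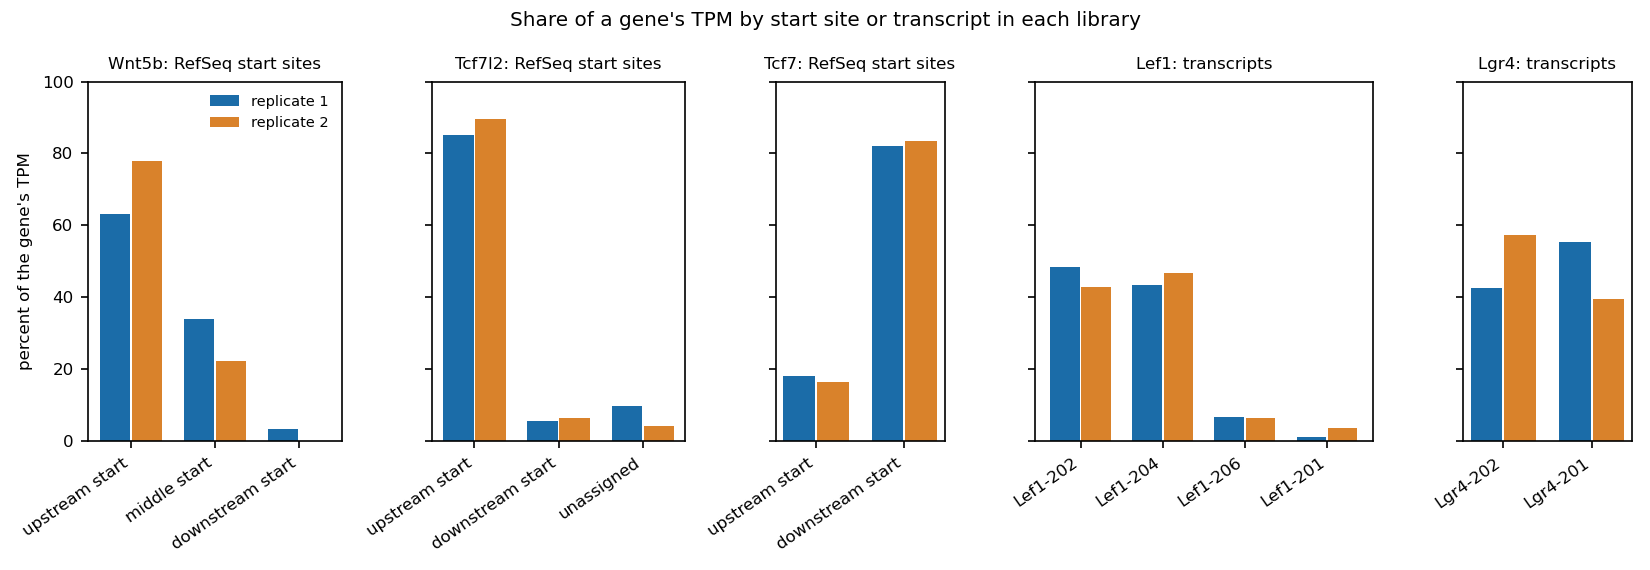
Bars give how a gene's TPM divides, in percent, in replicate 1 (left) and replicate 2 (right) by RefSeq start site for Wnt5b, Tcf7l2 and Tcf7, counted in the direction of transcription, and by transcript for Lef1 (the 4 highest) and Lgr4 (the 2 highest). Unassigned transcripts start further than 600 bases from any RefSeq start. The upstream start leads in Wnt5b at 63.0% and 77.9% and in Tcf7l2 at 85.0% and 89.6%, while the 2 Lgr4 transcripts change places between the libraries.

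Tcf and Lef factors bind DNA at a short motif, and some members are themselves targets. The RefSeq promoters, 250 bases before to 50 after a start, were searched on both strands for CTTTGAT and CTTTGAA. The table held 43 promoters of 33 members. CTTTGAT was present in 2 of these 43 and in 3.73% of all 32851 promoters, and CTTTGAA in 1 of 43 and in 5.14% of all. Either was in 6.98% of member promoters and 8.65% of all promoters. Counted from the start, the matches lay at -71 at the downstream Wnt5b start, the one with the fewest counts, and at -51 at the upstream Wnt11 start on the opposite strand. The CTTTGAA match of Dkk1 lay at -117 from its RefSeq start, but inside the only counted Dkk1 transcript, Dkk1-201, which starts further upstream. The Wnt5b and Wnt11 matches are printed with 25 bases on each side, the match in capitals (RefSeq, GRCm38.p6).
Wnt5b, chr6:119449426-119449482, minus strand: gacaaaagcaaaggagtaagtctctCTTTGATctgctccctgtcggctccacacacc
Wnt11, chr7:98835036-98835092, plus strand: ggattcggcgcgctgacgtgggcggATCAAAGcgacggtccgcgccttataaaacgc

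The pools were then compared gene by gene, as the ratio of counts in replicate 1 over replicate 2 after scaling. Of the 51 members that averaged at least 10 counts, 4 were past 1.5-fold, which is 7.84%, against 9.31% of all 17174 genes tested. The median size of the log2 ratio was larger for the members, 0.15, than for all genes, 0.11. The 4 were Wnt1 and Wnt3, higher in replicate 1 with 5.97% of all genes, and Fzd5 and Wnt11, higher in replicate 2 with 3.34% of all genes. Past 2-fold were 2 members, Wnt1 and Wnt3, against 3.28% of all genes in either direction and 2.14% higher in replicate 1. There is 1 library per pool, so these ratios have no replicate check, and the intervals below cover counting error only.

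Wnt1 had 69 counts in replicate 1 and 24 in replicate 2, a ratio of 2.58-fold with a 95% interval of 1.62 to 4.35. Wnt3, on chromosome 11 at 103774150 to 103817957, had 296 and 132 counts, 2.04-fold (1.66 to 2.52). Wnt3a, with 733 and 474 counts, lay just inside at 1.41-fold (1.25 to 1.58), as did the inhibitor Dkk2, with 356 and 225 counts, at 1.44-fold (1.21 to 1.71) and the receptor Lgr5, with 166 and 103 counts, at 1.46-fold (1.14 to 1.89). Wnt8b, with 3577 and 2650 counts, was 1.23-fold higher in replicate 1 (1.17 to 1.29), and the 3 R-spondins lay 1.13-fold to 1.19-fold higher there. The leading ligand Wnt7b, with 9188 and 8839 counts, lay slightly on the other side at 0.946-fold (0.918 to 0.974).

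Fzd5, on chromosome 1, had 207 counts in replicate 1 and 324 in replicate 2, and was 1.72-fold higher in replicate 2 (1.44 to 2.06). Its exons share 1233 bases with Gm38058 on the opposite strand, which was at 0.02 and 0.01 TPM. Wnt5b was 1.26-fold higher in replicate 2 (1.15 to 1.37), Dkk1 1.25-fold, Fzd4 1.21-fold and Sfrp1 1.204-fold. Wnt11 had 8 and 12 counts, and its interval, 0.62 to 4.65 for replicate 2 over replicate 1, included 1.

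**Figure D4:**
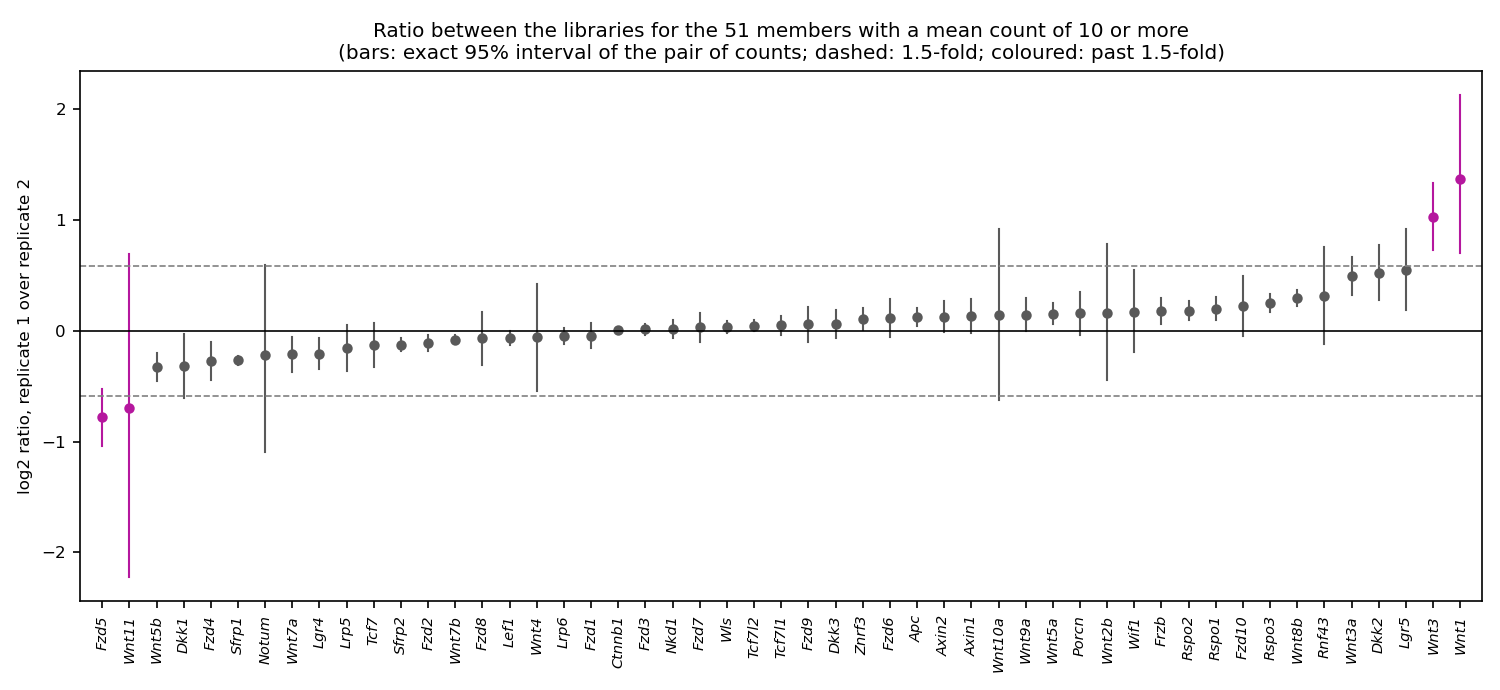
Log2 ratio of counts in replicate 1 over replicate 2 for the 51 members that averaged at least 10 counts, in rising order, each with the exact 95% interval of its pair of counts. The dashed lines mark 1.5-fold. Fzd5 and Wnt11 at the left end and Wnt3 and Wnt1 at the right end, in colour, are past it, and the interval of Wnt11 spans 0.

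Some markers of neighbouring regions and of other cells moved between the pools as well. Over all genes tested, 5.97% were past 1.5-fold higher in replicate 1 and 3.34% higher in replicate 2. No head mesenchyme, endothelial, surface ectoderm or macrophage marker was past 1.5-fold in either direction. Of the 12 forebrain neuroepithelium markers 8 were higher in replicate 1 and 4 in replicate 2. Hesx1 alone of these was past 1.5-fold, higher in replicate 1 on 29 and 16 counts (a log2 ratio of 0.70). Of 7 diencephalon markers that averaged at least 10 counts, 3 were past 1.5-fold, all higher in replicate 1: Olig3 (375 counts in replicate 1 and 87 in replicate 2, a log2 ratio of 1.97), Lhx9 (0.94) and Barhl2 (0.85). Of the 7, 6 were higher in replicate 1 and 1 in replicate 2. The summed level of the 8 listed genes was 44.0 TPM in replicate 1 and 33.5 TPM in replicate 2. The highest were Dbx1 at 12.5 and Irx3 at 10.8 TPM on average, and their log2 ratios were small, 0.11 and 0.04. Neuron markers were higher in replicate 1 in 8 of 8, 3 of them past 1.5-fold, with sums of 396.7 and 305.0 TPM and Tubb3 at 198.0 and Map2 at 56.4 TPM on average. Erythroid markers were higher in replicate 1 in 8 of 8, none past 1.5-fold, with sums of 20006 and 14752 TPM. Of the 8 optic markers all were higher in replicate 2, 5 past 1.5-fold, with sums of 22.2 TPM in replicate 1 and 52.7 TPM in replicate 2, and Pmel at 13.3 and Rax at 6.63 TPM on average led that list. Midbrain and isthmus genes stayed low in both, with sums of 14.6 and 13.7 TPM that were mostly Pax3 at 10.7 TPM, followed by Pax7 at 1.95, and En2 had 0 counts in replicate 1 and 1 in replicate 2. Pax8, at 34 counts in replicate 1 and 10 in replicate 2, was past 1.5-fold with a log2 ratio of 1.58, and Pax5, at 14.3 and 5.12 counts and so below the limit of 10 on average, had a log2 ratio of 1.26. Of 7 dorsal midline genes 5 were higher in replicate 2, with a list median of -0.13 on the log2 scale. Msx1 at 156.6 and Bmp4 at 20.6 TPM on average led that list. Lmx1a (473 counts in replicate 1 and 371 in replicate 2, a log2 ratio of 0.21) and Ttr went the other way. Ttr alone was past 1.5-fold, on 16 and 6 counts. In bulk tissue the cells behind each of these genes cannot be told apart, so the list does not give the direction of the midline itself. What part the makeup of the dissected tissue has in the ratios of Wnt1, Wnt3, Wnt3a and Fzd5 was not tested.

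**Figure D5:**
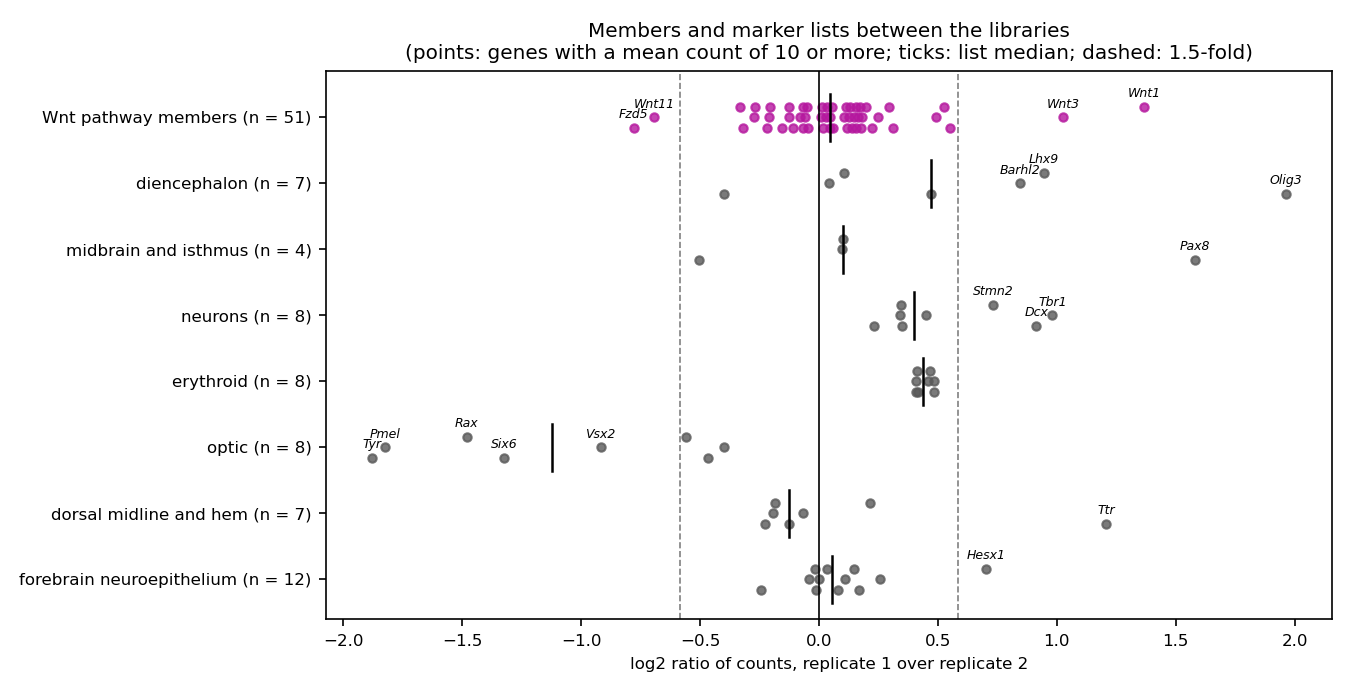
Log2 ratio of counts in replicate 1 over replicate 2 for the 51 members (top row) and for 7 marker lists, a point per gene that averaged at least 10 counts, with black ticks at list medians and dashed lines at 1.5-fold. Of the members past 1.5-fold, Wnt1 and Wnt3 lie right of 0 and Fzd5 and Wnt11 left of it. All 8 neuron markers, all 8 erythroid markers and 6 of 7 diencephalon markers lie right of 0. All 8 optic markers and 5 of 7 dorsal midline genes lie left of it. Of the 12 forebrain neuroepithelium markers 8 lie right of 0 and 4 left, with Hesx1 alone past 1.5-fold. Any link between members and lists was not tested.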

How the data were processed

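Total RNA was extracted with the mirVana method and spike-ins were added, per the labels' protocols. The deposited tables use the assembly mm10 and annotation M4, per the submitters' processing notes. The sources used here do not name the aligner or the quantification tool or say whether counting used strand. Per the file headers, the authors deposited expected counts per gene and transcript (estimated reads, not normalized), TPM and posterior mean TPM over all 69691 rows with spike-ins, FPKM, and for each transcript its percent of the gene's TPM. Spike-ins held 7.83% of the TPM of replicate 1 and 7.01% of that of replicate 2. Nothing says whether a pool shared litters with the other, so differences between libraries mix pool, extraction and library.

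Members were found by symbol through their Ensembl identifiers. The members and lists were chosen with earlier results of these data known. Named are all members. For each pathway list, up to 3 leading genes and those under 1 TPM in both libraries are named. For each marker list, the 2 leading genes and those at 0 counts are named. Lhx2, Hesx1, Olig3, Lhx9, Barhl2, Pax5, Pax8, En2, Lmx1a and Ttr were chosen after their values were seen. The other pathway genes number 90 in 6 lists and the markers stand in 12 lists. Pairs and neighbours were compared as log2 of TPM plus 0.1 within each library. Ratios between libraries used expected counts plus 0.5 over library sizes scaled with TMM factors from edgeR 4.0.16 (R 4.3.3; counts rounded to whole numbers for this step), for Ensembl genes averaging at least 10 counts; past 1.5-fold was called. Intervals are exact 95% binomial (Clopper-Pearson). DESeq2 1.42.0 size factors served as an alternative. Other steps used scipy 1.17.1, pandas 2.3.3, numpy 2.4.6 and matplotlib 3.10.9 in Python 3.11.15. Coordinates count from 1 and follow GENCODE M21 (GRCm38), and promoters are from RefSeq on GRCm38.p6. The tolerance of 600 bases for start sites was set after the transcripts were seen.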

Additional observations from a re-analysis of the deposited data

How the results depend on the processing

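No paired analysis was possible because both libraries belong to a single group. The count of detected members, 44, was 48 at a limit of 0.5 TPM, 41 at 2 TPM, and 45 with posterior mean TPM or with TPM rescaled over Ensembl genes, and ranged from 44 to 46 with either library left out. The median member level of 3.29 ± 0.07 on the log2 scale became 3.42 with a pseudocount of 1, 2.66 in FPKM and 3.40 with TPM rescaled over Ensembl genes, and ranged from 3.24 to 3.34 with a library left out. The count of 17 pairs with the first gene higher was 18 with either library left out and 18 without division by length. Of the single pairs, 2 turned round without division by length: Sfrp1 over Sfrp2 at 0.86 and Rspo1 over Rspo2 at -0.45 on the log2 scale. Over all pair alternatives 35 values moved by more than 1 SD and 83 did not, besides the 2 that turned round. The 83 include every value with a library left out. With 2 libraries a single library always lies within 1 SD of their mean, so those values could not move. Without division by length the larger moves among printed pairs were Fzd5 over Fzd8 to -0.20, Wnt5a over Wnt5b to 0.83, Znrf3 over Rnf43 to 4.03, Wls over Porcn to 3.79, Lrp6 over Lrp5 to 2.99, Lgr4 over Lgr5 to 2.63 and Dkk1 over Dkk2 to -0.51. With a pseudocount of 1, Znrf3 over Rnf43 was 2.26, and with posterior mean TPM 2.24. The 4 members past 1.5-fold were 4 with DESeq2 size factors and with library totals, 5 with no filter on counts (adding Sfrp5 on 6 and 2 counts), 2 at a mean count of 50 or more (which leaves out Wnt1 and Wnt11) and 2 at 2-fold. The leading transcript matched between libraries in 25 members also by posterior mean percent. By expected counts, an alternative chosen after seeing the data, the leading start held 92.8% of Tcf7l2 and 87.4% of Tcf7, against 87.3% and 82.8% by TPM. Depth limits Wnt1, Wnt2b, Wnt4, Wnt10a, Wnt11, Sfrp5 and Notum, each under 80 counts a library.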

Other observations

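Of the 83 other pathway genes that averaged at least 10 counts, 4 were past 1.5-fold between the libraries, all higher in replicate 1, against 5.97% of all genes past it in that direction. Kremen2, a co-receptor through which Dickkopf proteins act on Lrp6, had 135 counts in replicate 1 and 63 in replicate 2, a log2 ratio of 0.96. Apcdd1, a membrane inhibitor that binds Wnts, had 210 and 120 counts and a log2 ratio of 0.67. Lgr6 (18 and 10 counts) and Wnt16 (33 and 19 counts) rested on few counts. Apc2, a neural relative of Apc, lay just inside with 3276 and 2114 counts at 0.50, as did Neurog1, a neurogenic factor and known target, with 687 and 454 counts at 0.46. Neuron markers moved the same way, with summed levels of 396.7 TPM in replicate 1 and 305.0 TPM in replicate 2. Their part in these ratios was not tested. These genes were chosen after their values were seen.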
